A study of Zea mays with 12 samples.

Results

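The 4 RNA libraries described here come from maize (Zea mays) whole kernels collected after pollination, in reciprocal crosses of the inbred lines B73 and Mo17. They were chosen by their labels, as the kernels of 3 and 5 days after pollination (DAP), and are 4 of the 12 libraries of the series. BxM kernels of 3 DAP and of 5 DAP grew on a B73 mother pollinated by Mo17, and MxB kernels of 3 DAP and of 5 DAP grew on a Mo17 mother pollinated by B73. All 4 come from crosses of the same inbred pair and differ in which line was the mother. The other 8 libraries hold unpollinated kernels (0 DAP) and endosperm of 7, 10 and 15 DAP of both crosses, with 1 library for each cross and age. The labels speak of 3 replicate groups of plant material per sample at RNA extraction, but each cross and age has a single deposited column, so nothing here measures the spread between plants of one cross.

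A maize kernel combines tissues of different parentage. The pericarp and nucellus belong to the mother plant, the embryo inherits from both parents equally, and the endosperm, which feeds the embryo, holds more maternal than paternal genome copies. Shortly after pollination most of the kernel's mass is maternal, the endosperm is still a syncytium or has just formed cells, and its transfer cells and embryo-surrounding cells are only starting to appear. By its title, the series concerns imprinting and how the mother controls nutrient supply to the endosperm.

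The 4 libraries held 60672364 (BxM, 3 DAP), 67214378 (BxM, 5 DAP), 63823414 (MxB, 3 DAP) and 64195086 counts (MxB, 5 DAP). Where a model has no count, counting error alone leaves room for 3 counts, or 0.0427 to 0.0565 CPM (counts scaled to library size with TMM factors) in these libraries. BxM at 3 DAP stood apart. It had counts in 43253 gene models, against 48350 to 50028 in the other 3, a normalization factor of 0.875 against 0.995 to 1.098, and 16.9% of its counts in its 100 most abundant models against 12.9% to 13.3%. Gene lists were set beside the label of whole kernels. The ovule MADS-box list was filled by MADS-box symbols and is not limited to ovule markers. Its 26 tested genes summed to 4193 and 3913 CPM in BxM and 3054 and 3862 CPM in MxB (3 and 5 DAP). The 20 genes of the basal transfer layer and embryo-surrounding region summed to 12.3 and 323.5 CPM in BxM and 23.2 and 474.3 CPM in MxB. In whole kernels, fewer cells of a type and less RNA per cell cannot be told apart.

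The crosses differed in many gene models. Nearly all called models differed by large factors and in the same direction at both ages, which the test itself favours. With age as a term, edgeR's quasi-likelihood test called 1649 of 40879 models higher in BxM (4.03% of those tested) and 1490 lower (3.64%) at an adjusted p of 0.05, which is 7.68% in either direction. Every called model had the same sign at 3 and at 5 DAP except AC148152.3_FG005, which had 223 counts in BxM and 5044 in MxB at 3 DAP and none in either cross at 5 DAP. Among all models tested, 58.8% had the same sign at both ages. The called models were chosen on these same libraries, so their shared sign is no independent result. The median size of the difference was a log2 of 6.14 for the models called higher in BxM and 6.75 for those called lower. Of the 3139 called models, 3103 differed by over 4-fold and 0 by under 2-fold. On simulated counts the test recovered 4% of 2-fold and 20% of 4-fold differences in models with a mean count of at least 100. Smaller differences were thus seldom called. Counting without a test, 4579 models were at least 2-fold higher in BxM at both ages (11.2% of those tested) and 5008 at least 2-fold lower (12.3%).

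The called models held a small share of the counts. In the BxM libraries of 3 and 5 DAP, 3.49% and 2.88% of all counts fell in models called higher in BxM, against 0.398% and 0.32% in the MxB libraries. Models called lower took 0.138% and 0.154% of the counts in BxM, against 1.88% and 1.7% in MxB. Many differences were between presence and near absence. Of the 1649 models called higher, 588 had at most 3 counts in each MxB library and 260 (15.8%) had at least 100 counts in each. Of the 1490 models called lower, 687 had at most 3 counts in each BxM library and 121 (8.1%) had at least 100 in each.

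Because each cross has 1 library at each age, the 4-library test has 1 residual degree of freedom. Its p-values set the cross difference against a spread estimated in part from all models together. That spread reflects how unequally the crosses differ between the ages, and not the variation between plants. In a fit of all 12 libraries, which called 1547 higher and 1368 lower, leaving out BxM at 3 DAP left 536 and 529 calls, and leaving out MxB at 3 DAP left 569 and 407.

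**Figure D1:**
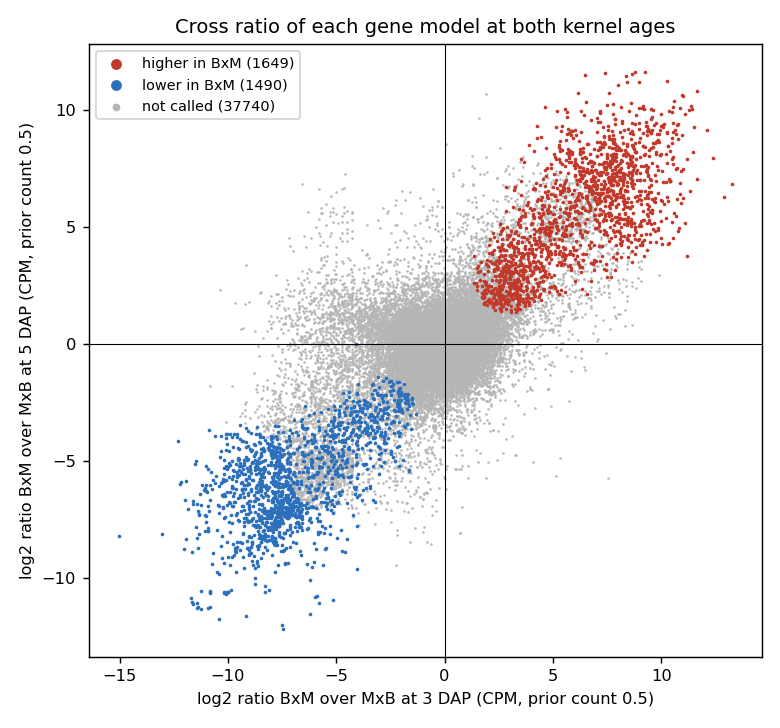
Each point is 1 of 40879 gene models. The x axis is its log2 ratio of BxM over MxB at 3 DAP and the y axis the same ratio at 5 DAP, both from CPM with a prior count of 0.5. The 1649 models called higher in BxM lie in the upper right, the 1490 called lower lie in the lower left, and the uncalled models spread around 0.

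The models with the largest fitted differences were present with one mother and absent with the other. GRMZM2G031087 had 1313 and 995 counts in BxM at 3 and 5 DAP and 0 and 0 counts in MxB. It was at least 835-fold higher in BxM, taking 3 counts over both MxB libraries as the floor (edgeR adjusted p = 0.00134). GRMZM2G365259 had 0 and 0 counts in BxM, against 1692 and 1123 in MxB, at least 864-fold lower in BxM (edgeR adjusted p = 0.00134). The 10 models with the largest differences in each direction were all of this kind. Those higher in BxM had 163 to 1752 counts in each BxM library and 0 in both MxB libraries, with lower bounds of 493-fold to 835-fold. Those lower in BxM had 0 counts in both BxM libraries and 40 to 1808 in each MxB library, with bounds of 464-fold to 864-fold. The names table gives none of these 20 models a symbol.

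Most of these 20 models were already unequal before pollination. All 10 models higher in BxM had at least 100 counts in unpollinated kernels of the B73 mother and at most 2 in those of the Mo17 mother. For the 10 lower in BxM, 8 had at least 100 counts in unpollinated Mo17 kernels, and the highest count in unpollinated B73 kernels was 3. The other two were seen in quantity only once pollinated. GRMZM2G039976 had 0 counts in B73 and 1 in Mo17 kernels at 0 DAP, and 0 and 0 in BxM against 314 and 1562 in MxB at 3 and 5 DAP. GRMZM2G018099 had 0 and 7 counts at 0 DAP, and 0 and 0 in BxM against 40 and 1472 in MxB. Both calls depended on single libraries: without MxB at 5 DAP the adjusted p in the 12-library edgeR fit was 0.144 for GRMZM2G039976 and 0.121 for GRMZM2G018099, and DESeq2 did not call GRMZM2G018099 (adjusted p = 0.15). GRMZM2G031087 (adjusted p = 0.0737 without BxM at 3 DAP) and GRMZM2G141252 (0.0717 without MxB at 3 DAP) also lost their edgeR calls. The remaining 16 kept theirs without any 1 of the 4 libraries.

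The kernel differences were set beside the same maternal lines before pollination. Of 1423 models called higher in BxM that had at least 100 counts over both 0 DAP libraries, 1413 (99.3%) were also higher in unpollinated B73 kernels. Of 1309 called lower, 1290 (98.5%) were lower there. Among all models tested with that many counts, 71.1% kept the sign. The median 0 DAP difference of the called models was a log2 of 6.25 for those higher in BxM and -8.61 for those lower. No model passed an edgeR test of the kernel difference against the 0 DAP difference over all 12 libraries, in either direction (0 of 40879, 0%), while 775 had an unadjusted p under 0.05 and DESeq2 called 3 larger and 16 smaller. On simulated counts that test recovered 60% of 16-fold and 92% of 64-fold differences, so smaller ones were often not detectable with these libraries. The changed models there had a mean kernel count of at least 100 and no cross difference at 0 DAP. Many called models were near 0 counts with one mother, where the test could decide little. For GRMZM2G031087, without a count in MxB at 0, 3 and 5 DAP, the fitted difference of 0.88 had an SE of 10930.

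The kernels of both crosses carry the genome of both lines, which allowed transcripts seen with one mother only at 0 DAP to be followed in the reciprocal cross. This rule was added after seeing the data and uses only the unpollinated kernels. There were 561 models with at least 100 counts in unpollinated B73 kernels and 0 in Mo17 kernels, and 806 with at least 100 in Mo17 and 0 in B73. In the cross whose mother lacked them, where the other line was the father, these transcripts stayed scarce at both kernel ages. The 561 B73 models summed to 2555 CPM in BxM and 8.64 CPM in MxB at 3 DAP, a level of 0.338% in MxB relative to BxM. At 5 DAP the sums were 2716 CPM in BxM and 31.7 CPM in MxB, or 1.17%. The 806 Mo17 models summed to 12.8 CPM in BxM and 2936 CPM in MxB at 3 DAP, a level of 0.435% in BxM relative to MxB. At 5 DAP the sums were 39.6 CPM in BxM and 2312 CPM in MxB, or 1.71%.

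At 5 DAP the traces were spread over more models than at 3 DAP. For the 561 B73 models, 153 had a count in MxB at 3 DAP and 279 at 5 DAP. For the 806 Mo17 models, 127 had a count in BxM at 3 DAP and 456 at 5 DAP. In the endosperm libraries both sets stood at a much higher level in the cross with that father. The 561 models stood at 48.8%, 39.7% and 50.1% in MxB relative to BxM at 7, 10 and 15 DAP, with counts in 512, 473 and 424 models. The 806 models stood at 56%, 47.9% and 54.7% in BxM relative to MxB, with counts in 770, 702 and 604 models. The step between 5 and 7 DAP is also a step from whole kernel to endosperm, so age and tissue cannot be told apart here. Whether reads of each line's alleles align equally well to these models was not tested.

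**Figure D2:**
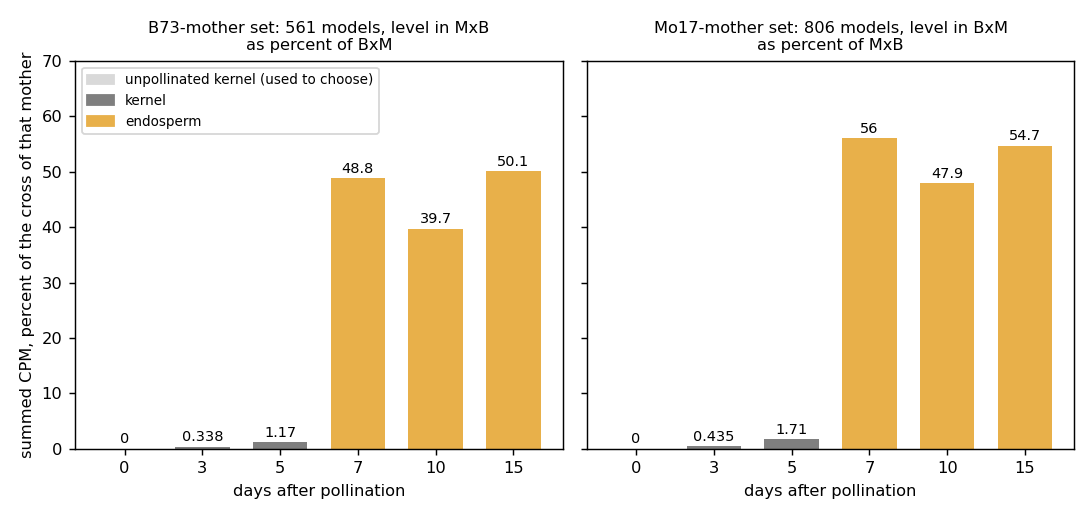
Bars give the summed CPM of a set of models in the cross whose mother lacked them, as a percent of the cross whose mother had them, by days after pollination. The left panel is for 561 models found in unpollinated B73 kernels only, the right for 806 found in unpollinated Mo17 kernels only. The bars at 0 DAP are 0 by the rule, those of whole kernels stay at 0.338 to 1.71 percent, and those of endosperm lie between 39.7 and 56 percent.

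Single models showed the same course. GRMZM5G823318 had 7399 and 5288 counts in BxM at 3 and 5 DAP, against 6 and 18 in MxB. In endosperm of 7 DAP it had 1354 counts in BxM and 775 in MxB. GRMZM2G569903, on the Mo17 side, had 0 and 15 counts in BxM at 3 and 5 DAP, against 4562 and 3980 in MxB, and in endosperm of 7 DAP 360 counts in BxM and 639 in MxB. In both, the cross with the lacking mother was near 0 in whole kernels and within a few fold in endosperm.

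Of the 561 B73 models, 529 were tested in the kernels. The models called higher in BxM at 3 to 5 DAP included 453 of the 561 (80.7%), which made up 27.5% of those calls. Of all models tested, 4.03% were called higher. Of the 806 Mo17 models, 785 were tested. The models called lower included 609 of the 806 (75.6%), which made up 40.9% of those calls, where 3.64% of all models tested were called lower. None of either set was called in the other direction. By a rule on the kernels themselves, 238 models had at least 100 counts in both BxM and at most 3 in both MxB libraries (0.582% of those tested), and 317 had the reverse (0.775%). In endosperm of 7 DAP, 209 of the 238 had over 3 counts in MxB and 286 of the 317 had over 3 in BxM.

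The differences of the called models were smaller in endosperm. The models were chosen on the kernel libraries, so part of that drop can come from the choice, which was not tested. Of 1234 models called higher in BxM with at least 100 endosperm counts, 1119 (90.7%) were also higher there, but with a median log2 difference of 1.01, against 5.72 in the kernels. Of 1111 called lower, 1015 (91.4%) were lower in endosperm, with a median of -1.04 against -6.35. Among all models with that many counts the sign was shared by 63.8%. The edgeR test of the difference itself found 387 of 40858 models with a larger ratio of BxM over MxB in kernels than in endosperm (0.947%) and 283 with a smaller one (0.693%). With edgeR 0 and 0 remained without both 15 DAP libraries (4498 had an unadjusted p under 0.05). Leaving out BxM or MxB at 3 DAP gave 116 and 117 or 142 and 83 calls, and leaving out BxM or MxB at 5 DAP gave 414 and 655 or 452 and 641.

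Few of the called models have a name: 47 of those higher in BxM and 18 of those lower carry a symbol in the names table. Names are few among all models too, with a usable symbol for 2674 of 108342. The share among the models tested was not counted. The 10 largest differences with a symbol in each direction are given after this with the genes of 21 lists of known pathways and cell types. Of 282 list genes tested, 8 were higher in BxM and 6 lower, or 4.96% in all, against 7.68% of all models tested. The share in the lists was thus below that of all models. In the fit of all 12 libraries BURP9, bHLH25, CYP92C5, ZmCASP1, pht2, HAK13, hsp18c and eks1, were not called (edgeR adjusted p of 0.0504 to 0.121).

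**Figure D3:**
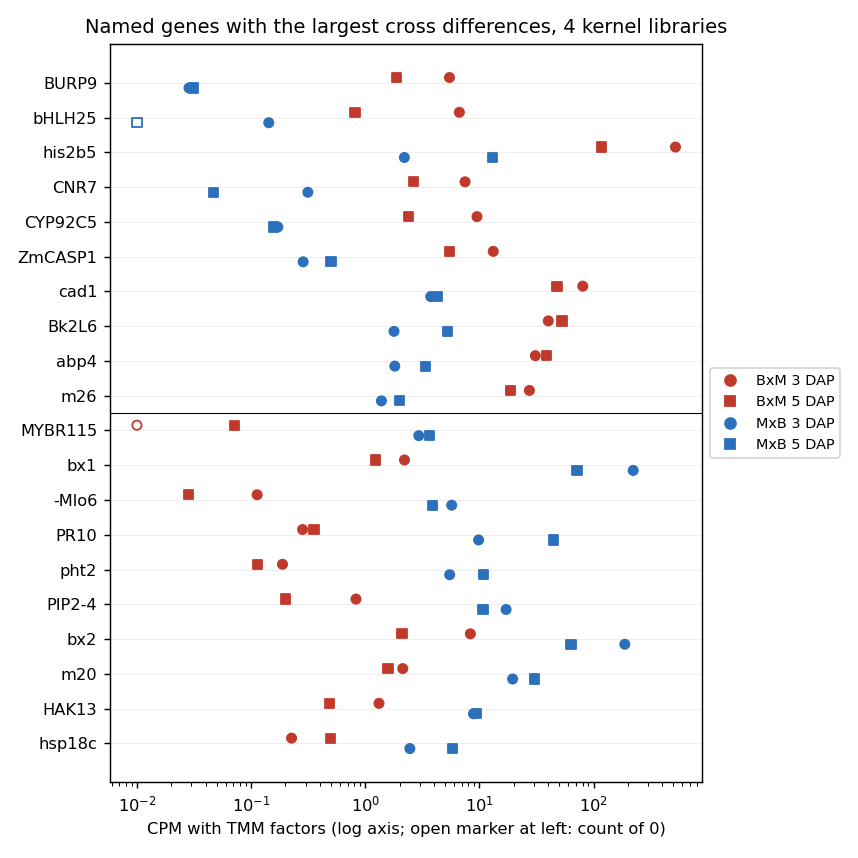
CPM of 20 genes with a symbol, on a log axis, in the 4 kernel libraries. Each gene has BxM markers above its MxB markers. The 10 genes above the line were higher in BxM and the 10 below it lower. In each of the 20 the libraries of the crosses do not overlap, and the genes were chosen on these same libraries.

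Among the listed genes, bx1 and bx2 belong to benzoxazinoid synthesis, the pathway by which young grasses make hydroxamic acid defence compounds from indole. Its opening enzymes are BX1, which releases indole, and BX2, a cytochrome P450 that makes the following oxidation. The gene bx1 (GRMZM2G085381) had 117 and 86 counts in BxM at 3 and 5 DAP, against 15542 and 4561 in MxB. Its log2 difference was -6.26 (SE 0.598, edgeR adjusted p = 0.00134). The gene bx2 (GRMZM2G085661) had 442 and 147 counts in BxM, against 13130 and 4049 in MxB, a log2 difference of -4.70 (SE 0.537, edgeR adjusted p = 0.00183). For both genes all MxB values lay far above all BxM values, and both calls held without any 1 of the 4 libraries.

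The other genes of the pathway did not follow. BX3, BX4 and BX5, which encode the P450 enzymes of the next oxidations, had log2 differences of -0.72, -0.16 and 0.07, and bx8 and bx9, which encode glucosyltransferases that store the product, had 0.29 and -1.03. BX5 had 77848 and 37720 counts in BxM and 77921 and 40806 in MxB. No gene of the list other than bx1 and bx2 passed the 4-library test, among 11 tested, while DESeq2 and the 12-library fit each called 1 gene higher in BxM, and the list's median log2 difference was -0.16 against -0.07 over all models. The gene igl1, for another enzyme that releases indole, had 3209 and 4772 counts in BxM, against 2141 and 1864 in MxB (log2 difference 1.10, edgeR adjusted p = 0.218). The beta-glucosidase gene glu1, whose enzyme frees the stored compounds, had 51044 and 200470 counts in BxM, against 30734 and 32922 in MxB, and was not called (edgeR adjusted p = 0.123).

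The bx1 and bx2 contrast was present before pollination. At 0 DAP bx1 had 46 counts in B73 and 8554 in Mo17 kernels, and bx2 had 380 and 6854. In endosperm both were nearly absent. The gene bx1 had 0, 0 and 2 counts in BxM and 58, 108 and 6 in MxB at 7, 10 and 15 DAP, and bx2 had 2, 0 and 0 in BxM and 30, 21 and 2 in MxB.

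**Figure D4:**
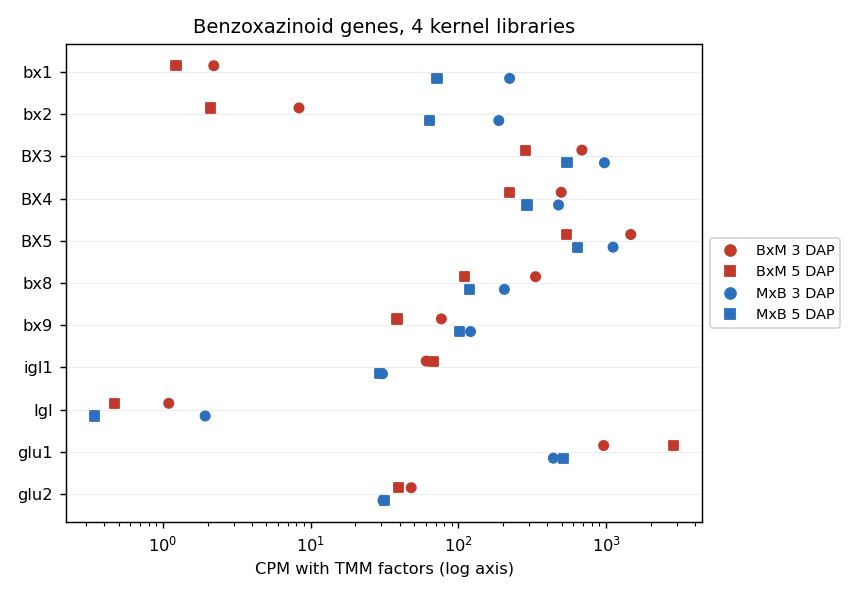
CPM of the 11 tested benzoxazinoid genes, on a log axis, in the 4 kernel libraries, with BxM markers above MxB markers for each gene. The genes bx1 and bx2 stand far lower in both BxM libraries, while BX3, BX4, BX5, bx8 and bx9 lie within a few fold between crosses of an age.

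The defence list of 9 tested genes had 1 call. PR10 (GRMZM2G112524), of the pathogenesis-related 10 protein family, had 15 and 25 counts in BxM, against 688 and 2839 in MxB, and both MxB values were far above both BxM values. Its log2 difference was -6.07 (SE 0.740, edgeR adjusted p = 0.00234). Unlike bx1, it was low with either mother at 0 DAP, with 12 counts in B73 and 23 in Mo17 kernels. In endosperm it had 40, 78 and 492 counts in BxM and 78, 679 and 848 in MxB. The edgeR test of its kernel difference against endosperm gave an adjusted p of 0.0585, and that against 0 DAP was not called. The list's median log2 difference was -0.87, and 3 of the 9 had both MxB libraries above both BxM libraries, where 21.9% of all models did. A gene outside the list is written -Mlo6 in the names table and belongs by that name to the MLO membrane protein family. It had 6 and 2 counts in BxM, against 400 and 247 in MxB (log2 difference -6.22, SE 0.982, edgeR adjusted p = 0.00543). Unlike PR10, -Mlo6 was already unequal at 0 DAP, with 2 counts in B73 and 591 in Mo17 kernels.

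PIP2-4, for a plasma membrane aquaporin, had 44 and 14 counts in BxM, against 1197 and 686 in MxB (log2 difference -5.02, SE 0.745, edgeR adjusted p = 0.00418). At 0 DAP it was close between the mothers, with 154 counts in B73 and 256 in Mo17 kernels. It was the single call among 23 aquaporins tested, whose median log2 difference was -0.26, and DESeq2 called 3 lower. PIP2-1 had 48656 and 33853 counts in BxM and 49861 and 32968 in MxB. The phosphate transporter gene pht2 had 10 and 8 counts in BxM, against 384 and 692 in MxB (log2 difference -5.69). The potassium transporter gene HAK13 had 70 and 34 counts in BxM, against 621 and 597 in MxB (log2 difference -3.50). In all 3 called genes both MxB libraries lay above both BxM libraries, as in 21.9% of all models tested. The calls of pht2 and HAK13 were not made in the 12-library fit (edgeR adjusted p = 0.0614 and 0.0602), whereas PIP2-4 was called there, also without any 1 of the 4 libraries.

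The lignin gene cad1, for a cinnamyl alcohol dehydrogenase, had 4265 and 3356 counts in BxM, against 262 and 275 in MxB (log2 difference 3.95, SE 0.543, edgeR adjusted p = 0.00335). Its difference was alike before pollination, with 4970 counts in B73 and 365 in Mo17 kernels. Bk2L6, of the COBRA-like family named after the brittle stalk mutant, had 2127 and 3710 counts in BxM, against 125 and 334 in MxB (log2 difference 3.91, SE 0.566, edgeR adjusted p = 0.00386). At 0 DAP Bk2L6 had 404 counts in B73 and 175 in Mo17 kernels, and in endosperm 1141, 2561 and 7034 counts in BxM and 1990, 2581 and 7115 in MxB. ZmCASP1, a Casparian strip membrane protein gene by its name, had 701 and 382 counts in BxM, against 20 and 32 in MxB (log2 difference 4.46). The phenylpropanoid and lignin list of 9 had cad1 as its single call and a median log2 difference of -0.02, and DESeq2 and the 12-library fit each called 2 of its genes higher. The 12-library edgeR fit did not call ZmCASP1 (adjusted p = 0.054). It called cad1, but not without BxM at 3 DAP (adjusted p = 0.123) or without MxB at 3 DAP (0.0954), while Bk2L6 kept its call.

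Among chromatin and cell cycle genes, a histone and a cyclin differed. The histone H2B gene his2b5 (GRMZM2G342515) had 27653 and 8246 counts in BxM, against 154 and 836 in MxB (log2 difference 5.51, SE 1.18, edgeR adjusted p = 0.021). Unpollinated kernels had 12078 counts in B73 and 12 in Mo17. In endosperm the gene had 13060, 23424 and 379 counts in BxM and 8652, 9482 and 226 in MxB, an average log2 difference of 1.13. In the 12-library fit its size in kernels moved with the library left out, between a log2 of 3.14 and 7.86, with the call kept each time. Counts of histone genes can be shared between near-identical copies, so the identity of the gene copy is uncertain.

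The other 7 core histone genes were not called, and the list's median log2 difference was 0.97 at 3 DAP and -0.40 at 5 DAP. The summed level of the list was 4051 and 946 CPM in BxM, against 1824 and 1098 CPM in MxB, so that BxM at 3 DAP, the library with the fewest models detected, held the most. The part of that library in the result was not tested. Cyclin-SDS, named after a cyclin needed for meiosis in Arabidopsis, had 677 and 742 counts in BxM, against 90 and 49 in MxB (log2 difference 3.54, SE 0.667, edgeR adjusted p = 0.0118), and was the single call of the 20 cell cycle and replication genes (median 0.07). It lost its call without BxM at 3 DAP (adjusted p = 0.0694). The replication gene PCNA had 2097 and 2033 counts in BxM and 2857 and 2853 in MxB.

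The gene ohp1, for a basic leucine zipper factor that pairs with Opaque2, had 1288 and 1727 counts in BxM, against 271 and 362 in MxB (log2 difference 2.38, SE 0.530, edgeR adjusted p = 0.0246). Its paralog ohp2 had 1008 and 1342 counts in BxM and 2186 and 1827 in MxB and was not called. The basic helix-loop-helix gene bHLH25 had 354 and 57 counts in BxM, against 10 and 0 in MxB (log2 difference 6.05). MYBR115, of the MYB-related family, was low in BxM with 0 and 5 counts, against 206 and 232 in MxB (log2 difference -6.69). The auxin-binding protein gene abp4 had 1638 and 2714 counts in BxM, against 127 and 216 in MxB (log2 difference 3.80, SE 0.545, edgeR adjusted p = 0.00374). The gene aoc1, for the allene oxide cyclase of jasmonate synthesis, had 26954 and 14240 counts in BxM, against 7207 and 3975 in MxB (log2 difference 2.00, SE 0.508, edgeR adjusted p = 0.0427). The gene eks1, for an ent-kaurene synthase, had 322 and 1605 counts in BxM, against 99 and 123 in MxB (log2 difference 2.84, edgeR adjusted p = 0.0313).

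All 6 had groups that did not overlap, but they were called on these same libraries. Both BxM libraries lay above both MxB libraries in 20.4% of all models tested, and the reverse held in 21.9%. Of the 6, abp4 alone was called in the 12-library fit without each library in turn. With every library present the 12-library edgeR fit did not call bHLH25 (adjusted p = 0.0504) or eks1 (0.113). Without BxM at 3 DAP the 12-library edgeR fit gave adjusted p values of 0.0692 for ohp1, 0.0863 for MYBR115 and 0.169 for aoc1. The lipoxygenase and jasmonate list of 24 had aoc1 as its single call, a median log2 difference of 0.40, and 10 genes with both BxM libraries above both MxB libraries, where 20.4% of all models were. In the list of 8 endosperm transcription factors ohp1 was the single call (median -0.27).

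Chaperone genes went both ways. HSP90-1 had 555 and 1353 counts in BxM, against 7355 and 10492 in MxB (log2 difference -3.21, SE 0.497, edgeR adjusted p = 0.00508), and had 1296 counts in B73 and 19139 in Mo17 kernels at 0 DAP. HSP90-2 had 22893 and 83401 counts in BxM and 25765 and 40244 in MxB and was not called. The small heat shock protein gene hsp18c had 12 and 35 counts in BxM, against 172 and 370 in MxB (log2 difference -3.48), while HSP18 (GRMZM2G404249) had 884 and 1084 counts in BxM, against 84 and 150 in MxB (log2 difference 3.25). These 3 were the calls among 25 heat shock genes, whose median log2 difference was -0.27. In the 12-library edgeR fit HSP90-1 kept its call without any 1 library, HSP18 was called with all libraries but not without any 1 of the 4 (highest adjusted p of 0.24), and hsp18c was not called (0.115).

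Of the 10 sucrose genes tested, 1 was called. The gene sus2, of the sucrose synthases that split sucrose for growth and storage, had 447 and 1650 counts in BxM, against 111 and 159 in MxB (log2 difference 2.83, SE 0.609, edgeR adjusted p = 0.0213). It had 6639 counts in B73 and 1244 in Mo17 kernels at 0 DAP. The summed level of the list was close between crosses, at 1560 and 1496 CPM in BxM and 1638 and 1525 CPM in MxB. SH-1, a further sucrose synthase, had 5628 and 8666 counts in BxM and 9101 and 10169 in MxB. None of the 16 starch synthesis genes was called, with a median log2 difference of -0.24.

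The remaining genes with a symbol among the largest differences were all higher in BxM except m20. BURP9, of the BURP domain family, had 290 and 131 counts in BxM, against 2 and 2 in MxB. CNR7, of the cell number regulator family, had 397 and 186 counts in BxM, against 22 and 3 in MxB. CYP92C5, a cytochrome P450, had 505 and 169 counts in BxM, against 12 and 10 in MxB. Their log2 differences were 6.69, 5.07 and 4.87, and the 12-library edgeR fit did not call BURP9 (adjusted p = 0.121) or CYP92C5 (0.0534). It called CNR7, but without any 1 of the 4 libraries it did not (highest adjusted p of 0.103). The gene m26 had 1453 and 1321 counts in BxM, against 97 and 127 in MxB (log2 difference 3.77). The gene m20 had 113 and 111 counts in BxM, against 1367 and 1933 in MxB (log2 difference -3.73). In endosperm m20 was level between crosses, with 388, 328 and 669 counts in BxM and 353, 370 and 713 in MxB. In the 12-library fit m26 and m20 were also called without any 1 of the 4 libraries.

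The lists of the transfer layer with the embryo-surrounding region and of storage proteins gave no call in the edgeR test, although their level differed between libraries. For the basal transfer layer, the cells through which sugars and amino acids enter the endosperm, and the embryo-surrounding region, 0 of 20 genes passed, with a median log2 difference of -4.68 at 3 DAP and -0.52 at 5 DAP. At 3 DAP 11 of the 20 had no count in BxM, while all had a count in MxB, and 18 were lower in BxM. The gene bap2 of the transfer layer had 8 and 7051 counts in BxM, against 317 and 10046 in MxB, at 3 and 5 DAP. The gene esr1 of the embryo-surrounding region (GRMZM2G046086) had 0 and 2374 counts in BxM, against 37 and 2606 in MxB. The gap at 3 DAP was thus between absence and low counts. By 5 DAP both crosses held these transcripts, with 19 of the 20 genes lower in BxM (median log2 ratio over all models -0.01). Unpollinated Mo17 kernels also had 178 counts of bap2, against 6 in B73 kernels, so such low counts do not mark endosperm alone. DESeq2 called 4 genes of this list lower in BxM.

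Storage protein transcripts were at trace level and 0 of 22 genes tested passed, while DESeq2 called 7 lower in BxM. Both MxB libraries were above both BxM libraries in 19 of the 22, where 21.9% of all models were, and the list's median log2 difference was -2.95. The library that set this apart was BxM at 5 DAP: the list summed to 75.2 and 4.94 CPM in BxM, against 117 and 110 CPM in MxB. The alpha-zein gene z1A1_6 had 605 and 15 counts in BxM, against 1399 and 1183 in MxB. Before pollination, when no endosperm exists, it had 664 counts in B73 and 28 in Mo17 kernels, in the opposite order. Zein genes form a family of near-identical copies, so reads may be shared between them.

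**Figure D5:**
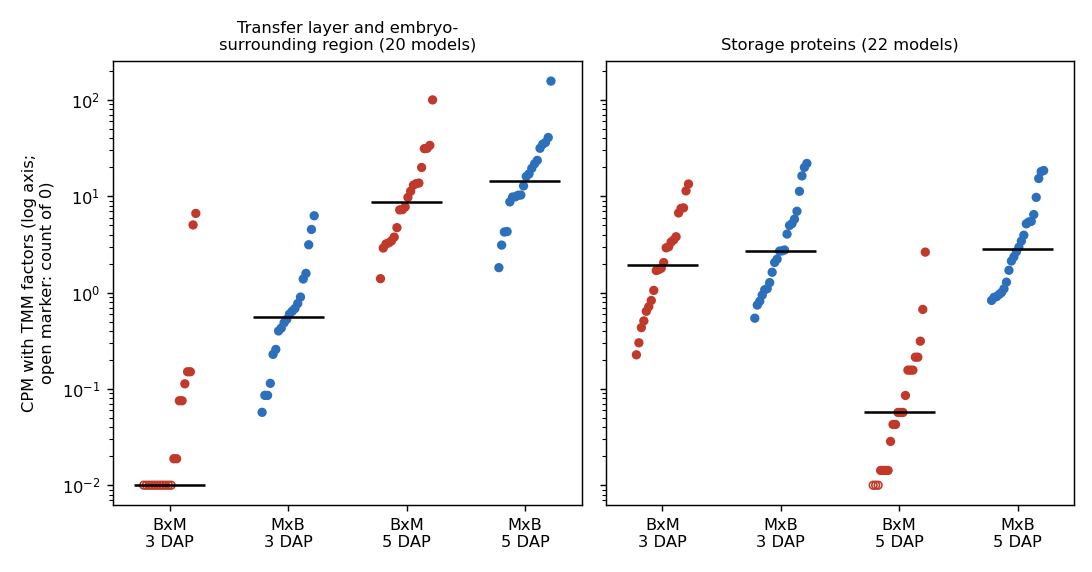
CPM on a log axis of the 20 genes of the transfer layer and embryo-surrounding region (left) and of the 22 storage protein genes (right) in each kernel library. Each point is a gene, open points have a count of 0, and the bar is the list's median. The left list is lowest in BxM at 3 DAP and the right list in BxM at 5 DAP.

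Several groups showed no call in either direction in the 4-library edgeR test. These were the genes of the ovule MADS-box list (0 of 26, median log2 difference 0.20) and the photosynthesis genes (0 of 12, 0.09). They were also the anthocyanin and flavonoid genes (0 of 10, 0.52) and the Polycomb and known imprinted genes (0 of 7, -0.24). The embryo markers (0 of 6, -0.27) and the auxin synthesis genes (0 of 4, 0.59) had none either. So did the cytokinin genes (0 of 9, 0.04), with 1 called lower by DESeq2 and by the 12-library fit. The terpene synthesis list had eks1 as its single call of 5 genes. Where the edgeR test called 1 gene, DESeq2 called 2 higher in the core histone, cell cycle, jasmonate and heat shock lists and 2 lower in the defence list. Among imprinted genes, fie1, a Polycomb gene expressed from the maternal copy in endosperm, had 53 and 680 counts in BxM and 89 and 817 in MxB, and mez1 had 809 and 2888 in BxM and 1871 and 1555 in MxB. On simulated counts the 4-library test recovered 4% of differences of 2-fold, 20% at 4-fold, 84% at 16-fold and 100% at 64-fold. Differences below about 16-fold were thus often not detectable. The changed models there had a mean kernel count of at least 100, and recovery at lower counts was not tried. Only 2 of the 4 auxin synthesis genes, 3 of the 6 embryo markers and 8 of the 12 photosynthesis genes averaged at least 1 CPM.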

How the data were processed

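The 12 libraries are RNA-seq of maize kernels and endosperm, and per the labels each sample is 1 cross at 1 age. The authors deposited raw read counts over 108342 gene models for each library, and a signal column that is those counts times a constant per library and was not used further. Bowtie and bedtools are named in the submitters' processing notes, with no version. The genome build, annotation release and use of strand were not given in the sources used here. Per the file headers, the counts of both crosses carry the name B73; whether transcripts of Mo17 alleles were counted as fully was not tested.

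On these counts the main test was edgeR's quasi-likelihood test (edgeR 4.0.16, R 4.3.3; filterByExpr with the cross as group, TMM factors, glmQLFit, glmQLFTest, Benjamini-Hochberg adjustment over all models tested, threshold 0.05), as BxM over MxB with age as a term in the 4 kernel libraries (1 residual degree of freedom). Differences against 0 DAP and against endosperm were tested in 1 fit of all 12 libraries, with cross nested in stage; 21 models with doubtful zeros at 15 DAP were left out of the endosperm test. CPM use TMM factors, and log2 ratios of single ages use a prior count of 0.5. A gene at 0 in a whole group was given a fold bound from 3 counts over that group's libraries. Overlapping models can hold the same reads, so totals are sums over models.

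RefSeq's gene table for Zm-B73-REFERENCE-NAM-5.0 matched 18732 models by synonym and gave 2674 a usable symbol. Whether the authors used that build is unknown, and no coordinates or sequences are printed. Named genes are the 10 largest differences in each direction among called models with a mean count of at least 100 and the same direction at both ages, the same among models with a symbol, and members of 21 lists. AC148152.3_FG005, GRMZM5G823318, GRMZM2G569903 and GRMZM5G860761 were picked after their values were seen. The members, lists and rules were chosen with earlier results of these data known.

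Tests were tried on simulated data (50 models changed at each of 4 fold sizes): unchanged models called in error, of 40879, numbered 8 in the 4-library test, 19 in the test against endosperm and 21 in that against 0 DAP. Alternatives were other normalization factors, DESeq2 1.42.0, limma-voom (limma 3.58.1), other filters, no age term, all 12 libraries, each library left out and identical models collapsed.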

Additional observations from a re-analysis of the deposited data

Results flagged for a closer look

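For 19 named genes the cross difference in kernels of 3 and 5 DAP differed from that in endosperm of 7 to 15 DAP by the edgeR test of the difference itself, in the fit of all 12 libraries (kernel log2 difference minus endosperm log2 difference, BxM over MxB). None of these calls remained without the 15 DAP libraries. The 47 named and called genes were chosen on the same kernel libraries, so these 19 are no independent result. Over all models tested, 387 of 40858 (0.947%) had a larger ratio of BxM over MxB in kernels than in endosperm. A smaller ratio was found in 283 (0.693%). Of the 19 named genes, 5 have a symbol, and 2 of these were higher in BxM kernels. Bk2L6 differed by a log2 of 3.95 (SE 0.528, edgeR adjusted p = 0.0189), with a difference of 3.93 in kernels and -0.02 in endosperm. For m26 the value was 3.05 (SE 0.565, edgeR adjusted p = 0.0468), with 3.79 in kernels and 0.74 in endosperm. The other three were lower in BxM kernels. For -Mlo6 the value was -5.40 (SE 0.882, edgeR adjusted p = 0.0326), with -6.18 in kernels and -0.78 in endosperm. PIP2-4 differed by -3.71 (SE 0.609, edgeR adjusted p = 0.0328), with -4.98 in kernels and -1.27 in endosperm. For m20 it was -3.91 (SE 0.494, edgeR adjusted p = 0.0167), with -3.70 in kernels and 0.21 in endosperm.

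The other 14 are models with no symbol and no count in one cross at 3 and 5 DAP, so their fitted values depend on the prior count and give a direction, not a size. The models absent from MxB kernels were GRMZM2G408005 (fitted log2 difference of differences 15.11), GRMZM2G067929 (11.93), GRMZM2G563482 (11.82), GRMZM5G842855 (11.78), GRMZM2G098662 (11.36), GRMZM2G021729 (11.23), GRMZM2G380955 (11.16), GRMZM5G869453 (11) and GRMZM2G085303 (10.97). The models absent from BxM kernels were GRMZM2G066333 (fitted log2 difference of differences -12.20), GRMZM2G365259 (-11.72), GRMZM2G135240 (-11.59), GRMZM2G310591 (-11.50) and GRMZM2G357654 (-11.43). All 14 had counts in the endosperm of both crosses. GRMZM2G365259, for instance, had 328, 34 and 24 counts in BxM endosperm at 7, 10 and 15 DAP and 384, 202 and 113 in MxB endosperm, after 0 and 0 in BxM and 1692 and 1123 in MxB kernels. GRMZM2G067929 had 421, 229 and 63 counts in BxM endosperm and 179, 127 and 112 in MxB endosperm, after 509 and 1352 in BxM and 0 and 0 in MxB kernels. In endosperm both models were found with either mother.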

How the results depend on the processing

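The calls of 1649 models higher and 1490 lower in BxM stayed within 1.5 times under other normalization factors (1623 and 1451; 1625 and 1509), DESeq2 (2216 and 1985), a mean count of at least 50 (1286 and 1087), no age term (1914 and 2205), all 12 libraries (1547 and 1368) and collapsed identical models (1613 and 1470). DESeq2 shared 1644 and 1486 of the calls. Limma-voom called 2444 and 2949, and no filter 2536 and 2538, more models being tested. Without single libraries the counts ran between 536 and 1181 higher and between 407 and 1689 lower. Against 0 DAP the counts were 0 and 0 without any single library of 3 or 5 DAP, and DESeq2 called 3 and 16. Against endosperm DESeq2 called 1337 and 1394, none remained without the 15 DAP libraries (0 and 0), and leaving out single libraries gave 116 to 452 larger and 83 to 655 smaller; the cause was not tested. At 4-fold at both ages 2746 models were higher, and with a mean count of at least 50 the 2-fold counts were 2937 and 2458. One-sided models numbered 456 and 643 at 50 counts and 28 and 35 at 500. For the models found with the B73 mother at 0 DAP the level in MxB at 3 DAP was 0.164% with at least 500 counts and 0.627% with at most 3 in the other mother. For those of the Mo17 mother the level in BxM was 0.138% and 0.829% at 3 DAP, and 1.02% at 5 DAP with at least 500 counts. Of the 47 named and called genes, none changed direction under the alternatives run for them. DESeq2 kept 46 of these calls, the fit of all 12 libraries 39, and that fit without BxM or without MxB at 3 DAP 29 each. No paired analysis was possible because each cross and age has 1 library and the labels carry no replicate numbers. Whether depth or the number of libraries limits these tests more was not tested.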

Other observations

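Among the called models, 1544 had at least 300 counts over the 6 endosperm libraries. Of these, 1043 leaned the same way at all 3 endosperm ages as in the kernels. They were 568 of the 837 called higher in BxM and 475 of the 707 called lower. The share of all tested models that did so was not counted, so the 1043 are given as a description only. Of the 1544, 1 (0.0648%) was at least 2-fold the opposite way at all 3 ages, where 42 of 26506 tested models with that many counts were (0.158%). This model, GRMZM5G860761, was singled out after its values were seen and has no symbol. It had 2072 and 2435 counts in BxM kernels at 3 and 5 DAP, against 290 and 249 in MxB kernels. Before pollination it had 2489 counts in B73 and 220 in Mo17 kernels. In endosperm of 7, 10 and 15 DAP it had 41, 62 and 23 counts in BxM, against 97, 171 and 98 in MxB. The model thus stood higher with the B73 mother in whole kernels and higher with the Mo17 mother in endosperm.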
